A study of Mus musculus with 30 samples.

Results

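The intermediate filament genes examined here are 7 of the 36103 genes in the count table: the keratin pair *Krt18* and *Krt8*, and *Des*, *Vim*, *Nes*, *Synm* and *Sync*. They were taken by gene symbol. The set was built around *Krt18*, which was chosen by its counts in the gastrocnemius, where it had one of the largest rises in *Mtm1*-/y mice. Its gastrocnemius values are therefore a description without a test. The other 6 were included for what they encode, with earlier results of these data known. The tissues sequenced were a fast limb muscle (gastrocnemius), a slower respiratory muscle (diaphragm), heart and liver, all from male mice aged 5 weeks. *Mtm1*-/y mice lack myotubularin, a phosphoinositide phosphatase, in every tissue, and the controls were WT littermates on the same 129Pas background. There were 30 libraries, 4 of each genotype for gastrocnemius and heart, 4 WT and 3 knockout for diaphragm and 3 WT and 4 knockout for liver. Each library is whole-tissue RNA, so that more cells of a type and more RNA per cell cannot be told apart.

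Intermediate filaments are the ropes of the cytoskeleton, built from paired coiled-coil proteins. A type I keratin such as keratin 18 pairs with a type II keratin such as keratin 8, and this pair is the filament of hepatocytes and other simple epithelia. Striated muscle instead relies on desmin, a type III protein that ties Z-discs to each other, to mitochondria, to nuclei and to the sarcolemma at costameres. Vimentin is the type III protein of mesenchymal cells. Nestin is a long type IV chain that copolymerises with them and is known from satellite cells, regenerating fibres and the neuromuscular junction. Synemin, also type IV, joins desmin to the dystrophin complex, and syncoilin binds desmin and alpha-dystrobrevin. Myotubularin is known to bind desmin.

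The libraries held 24873817 to 44289343 counts. Levels are given as CPM, counts relative to library size, scaled over all 30 libraries by the trimmed mean of M-values (TMM), and plain CPM means division by the library total alone. A log2 fold change (log2FC) is *Mtm1*-/y over WT and is followed by its standard error (SE). *Mtm1* itself lay between 15.5 and 27.0 CPM in the WT libraries and between 3.49 and 8.08 CPM in the *Mtm1*-/y libraries, with no overlap in any tissue. Its fall passed edgeR's quasi-likelihood test (p-values adjusted by Benjamini-Hochberg over all genes tested in that tissue, threshold 0.05) in gastrocnemius, diaphragm and heart (adjusted p = 2.07e-05, 0.0269 and 2.64e-05) and did not in liver (0.365). Tissue identity held for the striated muscle markers, whose summed level was at least 45098 CPM in every gastrocnemius, diaphragm and heart library and at most 128 CPM in the livers. Several libraries carried RNA of other cells. *Alb*, the serum albumin of hepatocytes, passed 10000 plain CPM in 4 of the 7 diaphragms, which were WT replicates 1, 2 and 4 and *Mtm1*-/y replicate 2. *Mtm1*-/y gastrocnemius replicate 3 held the epidermal keratin *Krt5* at 120.5 CPM, against at most 0.556 CPM in the other gastrocnemius libraries. WT heart replicate 4 had the highest summed level of mesothelial markers among the hearts, 336 CPM against at most 164 CPM in the *Mtm1*-/y hearts.

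*Krt8* and *Krt18* are neighbours on mouse chromosome 15 (GRCm38, the mm10 assembly). *Krt8* occupies chr15:101996698-102004482 on the minus strand and *Krt18* occupies chr15:102028180-102032027 on the plus strand, with 23697 bases and no other annotated gene between them. *Des* lies at chr1:75360329-75368579, *Vim* at chr2:13573927-13582826, *Nes* at chr3:87971078-87980451, *Sync* at chr4:129287617-129308559 and *Synm* at chr7:67730160-67759742 on the minus strand. Because the keratin pair moved together, the bases just before both of its genes are shown with those before *Des*, the main filament of muscle. They are RefSeq sequences of GRCm38.p6, 5′ to 3′ on the strand of the gene, and they stop before the first base that the Ensembl annotation gives to the gene. Capitals mark the letters of a searched motif. The *Krt18* stretch is chr15:102027966-102028179, the *Krt8* stretch is chr15:102004483-102004592 and the *Des* stretch is chr1:75360042-75360291.
Krt18: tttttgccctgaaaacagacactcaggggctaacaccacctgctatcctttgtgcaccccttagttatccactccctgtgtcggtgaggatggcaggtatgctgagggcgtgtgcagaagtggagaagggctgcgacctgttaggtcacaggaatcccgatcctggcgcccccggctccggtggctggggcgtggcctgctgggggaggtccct
Krt8: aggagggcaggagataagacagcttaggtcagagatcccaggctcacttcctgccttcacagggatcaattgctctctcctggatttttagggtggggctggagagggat
Des: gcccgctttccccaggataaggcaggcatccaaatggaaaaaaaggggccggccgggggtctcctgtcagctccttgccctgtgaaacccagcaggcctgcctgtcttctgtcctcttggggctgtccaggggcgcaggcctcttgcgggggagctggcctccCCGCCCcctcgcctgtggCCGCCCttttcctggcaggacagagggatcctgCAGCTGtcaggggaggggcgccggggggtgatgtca

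The motifs searched on both strands, in the 250 bases before the RefSeq start of each of 32851 promoter entries, were CAGCTG (an E-box), TGANTCA (the AP-1 element), GGGCGG (a GC box), CATTCC (TEAD), TGTGGT (RUNX), TATAAA (the TATA box), and the CArG box and the MEF2 site by name. All 7 genes matched 1 entry each. Neither *Krt18* nor *Krt8* held a match to any of them. Both of their windows reach into the gene as Ensembl draws it, and 214 and 110 of the 250 bases lie before it. *Des* held 1 E-box, which 13% of all entries have, and 2 GC boxes, which 32.7% have. *Nes* held 2 GC boxes and *Sync* held 3. *Vim* held 1 TATA box, present in 12.4% of entries, although its RefSeq start lies inside the gene as Ensembl draws it. The AP-1, TEAD, RUNX, CArG and MEF2 letters were in none of the 7 windows, and 6.75%, 12.6%, 14%, 1.47% and 2.92% of all entries hold them. These are matches of letters only.

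In WT mice the 7 genes fell into a liver pair and a muscle group. Liver had the most keratin, and the gastrocnemius had almost none. *Krt18* was at 213.2, 226.6 and 189 CPM in the 3 WT livers, at 40.1, 50.5, 3.36 and 51.4 CPM in the diaphragms, at 2.06, 1.17, 1.23 and 6.14 CPM in the hearts and at 0.307, 0.199, 0.257 and 0.275 CPM in the gastrocnemius. *Krt8* was ordered in the same way, with 115 ± 13.9 CPM (SD, n = 3) in liver, 21.5 ± 14.4 (n = 4) in diaphragm, 1.12 ± 0.99 (n = 4) in heart and 0.0687 ± 0.0468 (n = 4) in gastrocnemius. The steps from liver to diaphragm and from diaphragm to heart passed edgeR's test over the 15 WT libraries for both genes. The step from heart to gastrocnemius is given as a description, since the WT gastrocnemius values of *Krt18* entered the choice of that gene and those of *Krt8* stand on 0 to 3 counts per library. The WT diaphragms at 40.1 CPM of *Krt18* or more were those with over 10000 plain CPM of *Alb*, and WT replicate 3, which had 284 plain CPM of it, was at 3.36 CPM of *Krt18*, inside the range of the hearts.

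The muscle genes ran the other way. *Des* stood at 3296 ± 388 CPM in WT gastrocnemius, 2244 ± 431 in diaphragm and 1140 ± 112 in heart (SD, n = 4 each), and at 6.31 ± 0.939 (n = 3) in liver. *Synm* had the steepest fall among the muscles, from 1008 ± 99.2 CPM in gastrocnemius through 281 ± 91.1 in diaphragm to 22.3 ± 13.4 in heart, and was at 0.84 ± 0.149 in liver. *Sync* followed the same order at 68.1 ± 5.4, 33 ± 9.07, 18.1 ± 1.58 and 0.0548 ± 0.0326 CPM. *Nes* was highest in gastrocnemius, at 106 ± 7.63 CPM, and diaphragm and heart were indistinguishable at 56.9 ± 11.5 and 59.2 ± 21.3 (adjusted p = 0.815). *Vim* was at 272 ± 98.4 CPM in heart and 228 ± 34 in diaphragm, which did not differ beyond their spread (adjusted p = 0.316), then at 147 ± 21.9 in gastrocnemius and 18.8 ± 2.7 in liver. Leaving out *Krt18* in the gastrocnemius, and *Krt8* there and *Sync* in the liver, which had under 10 counts in every WT library, 31 of 33 comparisons of a gene between 2 tissues passed. They were 5 of 5 genes between gastrocnemius and diaphragm, where 54.4% of all genes passed, 5 of 5 between gastrocnemius and heart (61.3%), 4 of 4 between gastrocnemius and liver (79.5%), 6 of 6 between diaphragm and liver (76.1%), 6 of 6 between heart and liver (76.4%) and 5 of 7 between diaphragm and heart (51.7%).

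Both keratins were far higher in the *Mtm1*-/y than in the WT gastrocnemius. *Krt18* read 0.307, 0.199, 0.257 and 0.275 CPM in the WT libraries and 29.8, 13.6, 13.7 and 10.3 CPM in the *Mtm1*-/y libraries. *Krt8* read 0.092, 0.0795, 0 and 0.103 CPM in WT and 6.11, 3.07, 2.81 and 2.26 CPM in *Mtm1*-/y. Every *Mtm1*-/y library lay above every WT library for both genes. The WT values stand on very few reads, 5 to 10 counts of *Krt18* and 0 to 3 counts of *Krt8* per library, so both genes passed the filter on low counts through the *Mtm1*-/y libraries. Summed over libraries, the rate was 66 times higher for *Krt18* (2331 counts against 31, exact 95% interval 46.4 to 97.4) and 54 times higher for *Krt8* (492 counts against 8, 27.2 to 126), intervals that cover counting error only. The fitted log2 fold change was 5.97 (SE 0.42) for *Krt18* and 5.62 (SE 0.54) for *Krt8*, both given as descriptions with no test. The level reached was still modest, since the *Mtm1*-/y mean of *Krt18*, 16.8 ± 8.77 CPM (SD, n = 4), was far below that of the livers. *Mtm1*-/y replicate 1 was the highest library for both keratins. Without it the log2 fold change of *Krt18* was 5.55 and that of *Krt8* was 5.23.

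**Figure D1:**
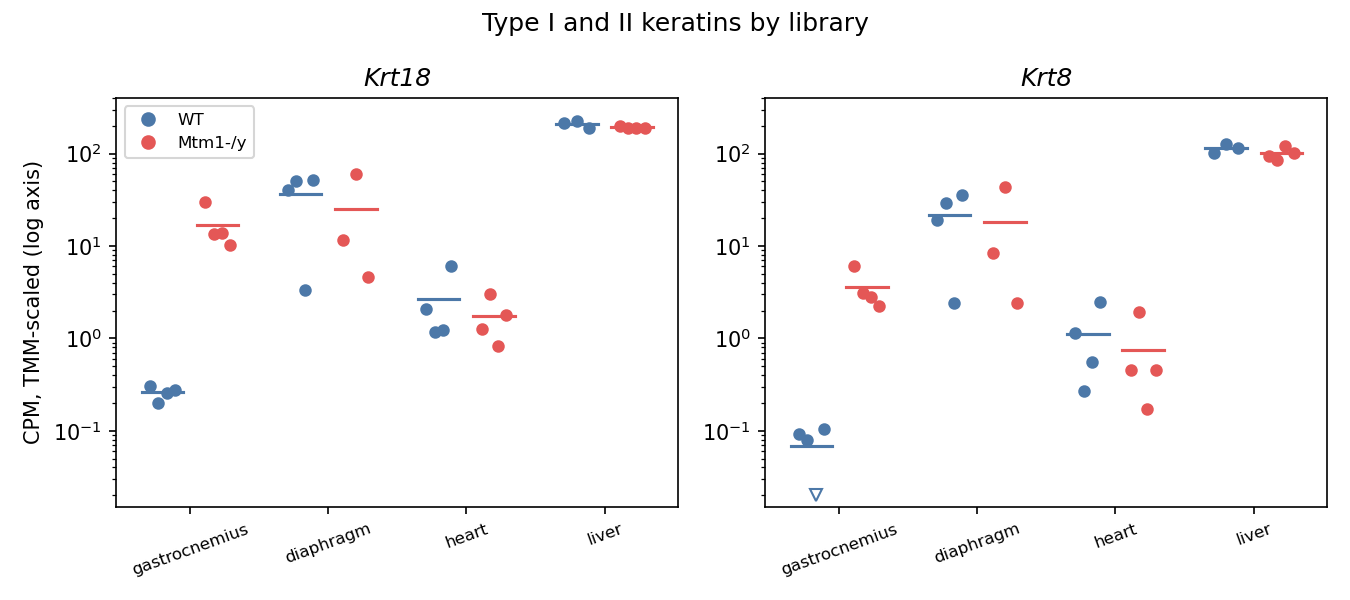
Levels of *Krt18* (left) and *Krt8* (right) in each of the 30 libraries, in TMM-scaled CPM on a log axis, by tissue and genotype, with a line at each group mean. The open triangle stands for the WT gastrocnemius library with 0 counts of *Krt8*. In the gastrocnemius the *Mtm1*-/y libraries sit between 10.3 and 29.8 CPM of *Krt18* and the WT libraries between 0.199 and 0.307, whereas the genotypes overlap in the other tissues.

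The proportion of the 2 chains set the *Mtm1*-/y gastrocnemius apart from liver and diaphragm. Keratins 8 and 18 assemble in equal amounts as proteins, and their transcripts can be compared once counts are divided by exon length (1437 bases for *Krt18*, 1958 for *Krt8*). Per base, *Krt18* exceeded *Krt8* by 2.5 ± 0.348 times (SD, n = 3) in WT liver and by 2.28 ± 0.455 times (n = 4) in WT diaphragm. In *Mtm1*-/y gastrocnemius the ratio was 6.38 ± 0.305 (n = 4), and its 4 libraries, at 6.02 to 6.64, lay above every liver (2.17 to 2.99) and every diaphragm (1.88 to 2.9). The hearts were spread from 2.18 to 6.54. In WT gastrocnemius 3 libraries gave a ratio, from 3.41 to 4.54, and the summed counts gave 5.28 with an exact 95% interval of 2.37 to 13.3, too wide to place it against the *Mtm1*-/y value of 6.46 (5.86 to 7.13). These ratios are descriptions, and no test was made of them.

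*Alb* RNA was no higher in the gastrocnemius libraries that held the keratins. The WT livers held 1.46 to 2.06 counts of *Krt18* for each 1000 of *Alb*. At that rate the *Alb* of the *Mtm1*-/y gastrocnemius libraries, 2.64 to 39.5 plain CPM, corresponded to 0.0397% to 0.49% of their *Krt18* and 0.106% to 1.3% of their *Krt8*. In the WT gastrocnemius, on very few keratin counts, it corresponded to 12.6% to 39% of *Krt18*. For *Krt8* it was 18.4% to 71.3% in the WT libraries that had a count of it. *Alb* lay between 2.65 and 37.6 CPM in *Mtm1*-/y and between 19.4 and 67.2 CPM in WT. Of the 13 hepatocyte markers tested, 1 rose (*Cyp2e1*) and 2 fell (*Tat* and *Ahsg*), beside 14.1% and 14.9% of all genes. Without *Mtm1*-/y replicate 3 the numbers were 1 and 12. Some markers of other epithelia did move. The summed level of the 7 mesothelial markers was 0.715 to 1.47 CPM in WT and 4.38 to 12.8 CPM in *Mtm1*-/y, and *Msln*, which encodes mesothelin, averaged 0.245 ± 0.125 (WT) against 6.14 ± 3.87 CPM (knockout; SD over 4 libraries, log2FC 4.57 ± 0.53 SE, no test). Of the 7, 2 passed the filter, and *Upk1b*, *Lrrn4* and *Muc16* were at 0 in all WT gastrocnemius libraries. Most of the *Mtm1*-/y sum was *Msln*, at 3.01 to 11.7 CPM. *Upk3b* was at 0 to 0.305 CPM in *Mtm1*-/y gastrocnemius, against 80.9 to 155 CPM in WT diaphragm. Bile duct markers summed to 5.14 to 11.3 CPM in WT and 18.6 to 30.3 CPM in *Mtm1*-/y, and of the 3 tested *Spp1* and *Sox9* rose. *Krt19*, a partner of *Krt8* in mesothelium and at muscle costameres, was at 0.482 to 1.07 CPM in WT and 0.703 to 1.07 CPM in *Mtm1*-/y (log2FC 0.38 ± 0.28 SE, adjusted p = 0.327). In the diaphragm, where the 7 mesothelial markers summed to 187 to 383 CPM, *Krt19* was at 13.3 to 26.7 CPM. The keratinocyte markers summed to 10.8 to 14.8 CPM in WT and to 32.4 to 285 CPM in *Mtm1*-/y, the top value being replicate 3. *Trp63*, a transcription factor of basal epidermal cells, rose from 9.9 ± 1.47 to 33.4 ± 3.11 CPM (adjusted p = 3.32e-05). In *Mtm1*-/y replicates 1, 2 and 4 most of the sum was *Trp63*, at 34.6, 28.8 and 35.1 CPM. There the epidermal keratins *Krt5* and *Krt14* were at most 0.556 and 0.328 CPM. Of the 3 keratinocyte markers tested 2 rose, and 1 without replicate 3. *Krt18* in replicate 3, at 13.7 CPM, was within the range of the other 3. The part of liver, mesothelial, bile duct or keratinocyte RNA in the keratin values was not tested.

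**Figure D2:**
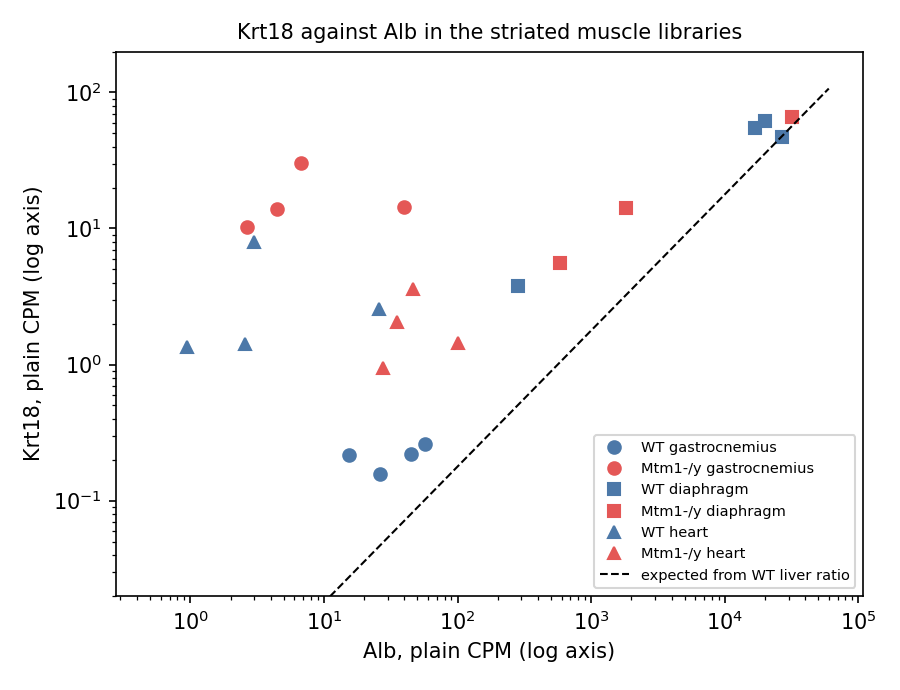
*Krt18* against *Alb* in the 23 gastrocnemius, diaphragm and heart libraries, both in plain CPM on log axes, with colour for genotype and shape for tissue. The dashed line is the *Krt18* expected at the *Krt18* to *Alb* ratio of the WT livers. The 4 diaphragms with over 10000 CPM of *Alb* sit near it, and the *Mtm1*-/y gastrocnemius libraries sit far above it.

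The desmin-based network of the gastrocnemius also changed, by much smaller factors. *Des* was at 3189, 3419, 2826 and 3748 CPM in WT and at 6048, 4215, 4014 and 4453 CPM in *Mtm1*-/y (log2FC 0.49 ± 0.14 SE, adjusted p = 0.0267). The lowest *Mtm1*-/y library was thus just above the highest WT library. *Nes* had the largest change among the muscle filaments, from 116.7, 105, 99 and 102.9 CPM to 294, 285, 195 and 196 CPM (log2FC 1.18 ± 0.14 SE, adjusted p = 0.000506). *Vim* went from 179, 130, 139 and 139 CPM to 257, 231, 246 and 236 CPM (0.71, SE 0.09, adjusted p = 0.000719). The synemin gene moved the opposite way to the desmin gene. *Synm* was at 926, 1148, 1005 and 952 CPM in WT and at 727, 654, 655 and 656 CPM in *Mtm1*-/y (log2FC -0.60 ± 0.09 SE, adjusted p = 0.00103). *Sync* rose least, from 67.2, 75.4, 62.3 and 67.3 CPM to 103.4, 87.7, 76.6 and 76 CPM (0.32, SE 0.11, adjusted p = 0.0463). Among the 5 genes other than the keratins, 4 rose and 1 fell, and in none did the genotypes overlap, beside 14.1% of all 15456 genes tested that rose, 14.9% that fell, 29% in either direction and 30.6% whose genotypes did not overlap. DESeq2 called all 5, beside 25.7% of its genes. *Nes* also had an absolute log2FC over 1, 1 of 5 beside 6.63% of genes. *Des* and *Sync* stood close to the threshold: *Des* did not pass without WT replicate 1, 2 or 3, nor *Sync* without WT replicate 1, 3 or 4 or *Mtm1*-/y replicate 1 or 2. Fitted with all 30 libraries together, *Nes* kept its call, while *Vim* (adjusted p = 0.0816), *Synm* (0.153), *Des* (0.241) and *Sync* (0.322) did not, 1 of 5 beside 15.8% of genes.

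**Figure D3:**
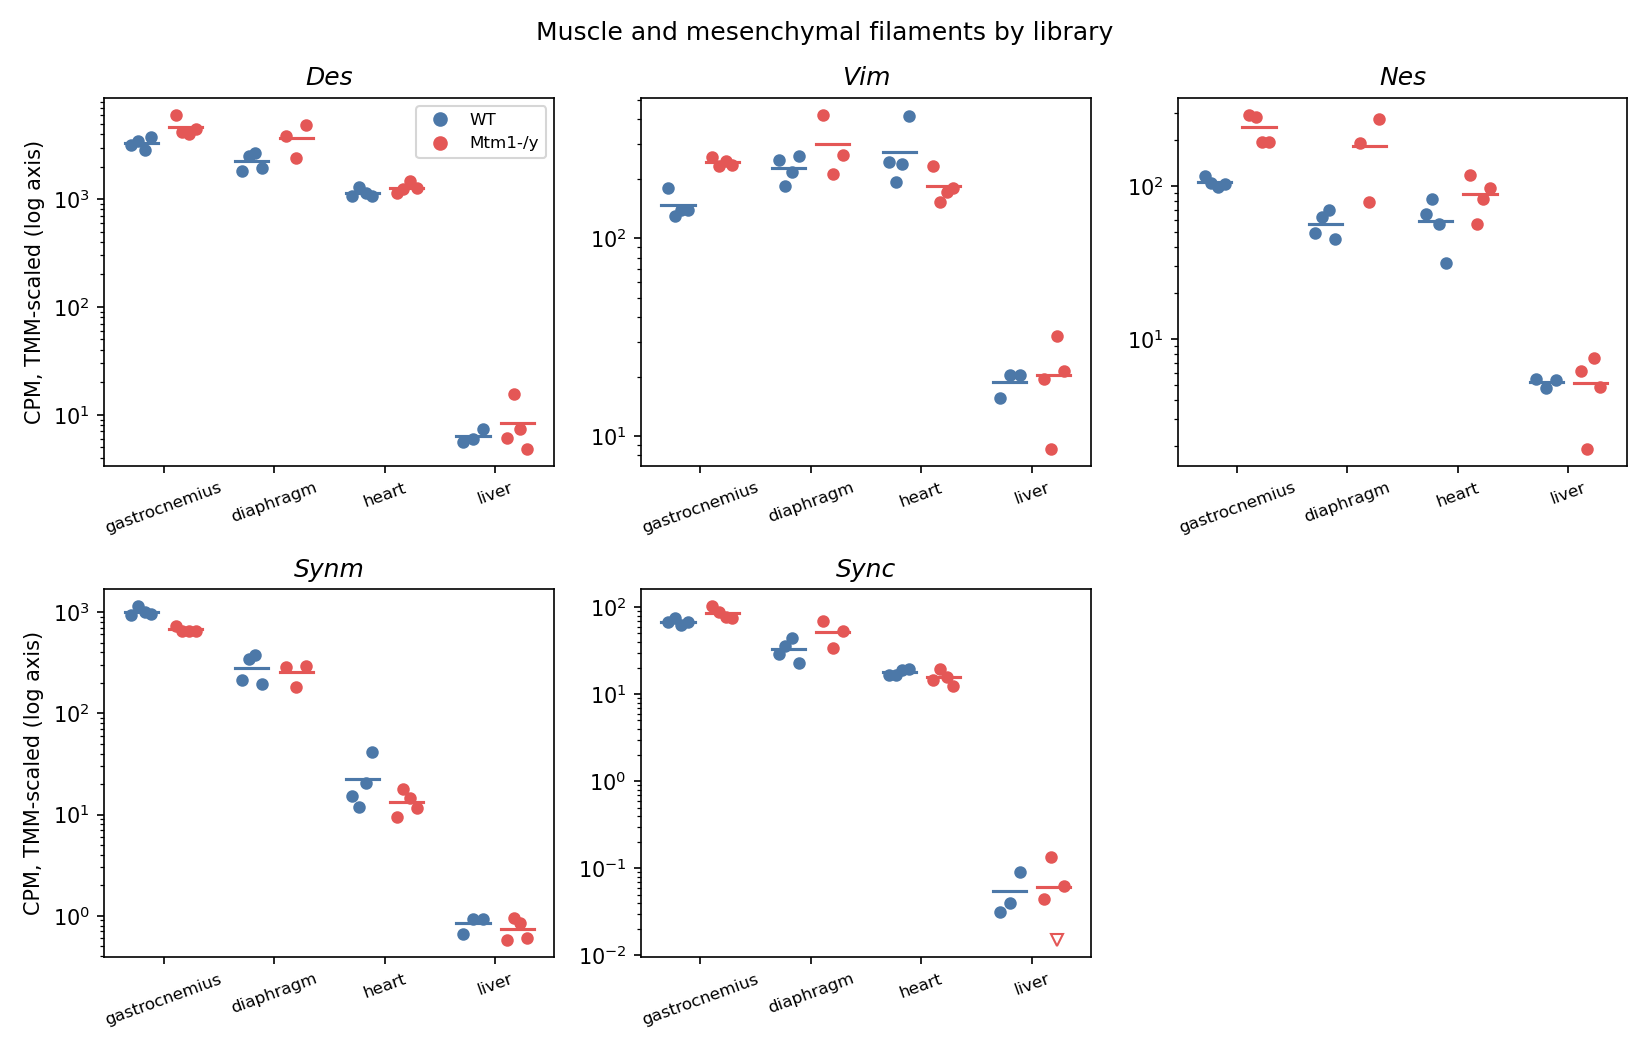
Levels of *Des*, *Vim*, *Nes*, *Synm* and *Sync* in each library, in TMM-scaled CPM on a log axis, by tissue and genotype, with a line at each group mean. The open triangle marks the *Mtm1*-/y liver with 0 counts of *Sync*. In the gastrocnemius the *Mtm1*-/y libraries sit above WT for *Des*, *Vim*, *Nes* and *Sync* and below WT for *Synm*.

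Scaling matters for these modest changes, because the 10 most abundant genes took 26.5% to 28.6% of counts in the WT gastrocnemius and 19.9% to 21.5% in *Mtm1*-/y. Dividing by library totals alone moved the median of all genes in that tissue to 0.35 on the log2 scale, against 0.02 with TMM. On that scale *Des* differed by 0.83, *Vim* by 1.04, *Nes* by 1.51, *Sync* by 0.66 and *Synm* by -0.26, so that no direction changed.

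Genes that work with the filaments were split in the *Mtm1*-/y gastrocnemius. Of 22 tested linkers and anchors, 6 rose and 3 fell, with a median log2 fold change of 0.18 against 0.02 over all genes. Of all genes tested, 14.1% rose and 14.9% fell. *Flnc*, the filamin of Z-discs and costameres, rose from 1142 ± 188 to 2468 ± 594 CPM (adjusted p = 0.00181), *Actn2*, a Z-disc alpha-actinin, from 1584 ± 267 to 2950 ± 395 (adjusted p = 0.00115), and *Macf1*, a spectraplakin, from 87.1 ± 5.72 to 151 ± 20.8 (adjusted p = 0.000563), whereas *Tln2*, a talin, fell from 217 ± 17.8 to 133 ± 11.8 (adjusted p = 0.00037; SD, n = 4 each). Among the 6 that rose, the desmosomal gene *Dsp* and *Evpl* were highest in *Mtm1*-/y replicate 3, at 132 and 24.9 CPM. These 2 were named after their values were seen. *Dsp* was at 0.278 to 0.929 CPM in WT and at 1.85 to 10.2 CPM in the other *Mtm1*-/y libraries. Its log2 fold change was 6.01 (SE 1.43), and 3.44 (SE 0.57) without replicate 3. *Evpl* was low elsewhere, at 0.128 to 0.344 CPM in WT and 0.328 to 0.45 CPM in the other *Mtm1*-/y libraries. It is counted among the 6 as a description, and it did not pass without replicate 3 (adjusted p = 0.0946). Without that library, 5 linkers rose, 3 fell and the median was -0.03. Of the 10 chaperones and ligases that act on desmin, 4 rose and 3 fell, beside the same shares of all genes. *Cryab*, the small heat shock protein that chaperones desmin, rose from 521 ± 60.7 to 1345 ± 387 CPM (adjusted p = 0.000848) and *Hspb1*, another, from 23.7 ± 5.97 to 65.7 ± 23.3 (adjusted p = 0.00241). The muscle ligase gene *Trim63* rose from 275 ± 59 to 517 ± 87.9 CPM (adjusted p = 0.00428) and its relative *Trim55* fell from 103.6 ± 5.54 to 73 ± 8.4 (adjusted p = 0.00211).

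Among other filament genes, *Lmna*, which encodes lamins A and C of the nuclear envelope, rose from 81.8 ± 8.14 to 171 ± 51.7 CPM (adjusted p = 0.00218), and *Nefh*, a neurofilament chain, fell from 2.08 ± 0.386 to 0.551 ± 0.157 (adjusted p = 0.000664). These were the 2 called of 8 tested, beside 29% of all genes called in this tissue. Of the 3 other simple keratins tested, *Krt80* was called. It was at 1.89 to 2.45 CPM in WT and at 4.88 to 32.7 CPM in *Mtm1*-/y, again highest in replicate 3 (log2FC 2.6 ± 0.6 SE, adjusted p = 0.0105, and 1.59, adjusted p = 0.00204, without that library). In the diaphragm the log2 fold change of *Krt80* was 2.15 (SE 0.52, adjusted p = 0.279). Of the 14 keratins of stratified epithelia, *Krt10* alone could be tested (2.26, SE 0.98, adjusted p = 0.111). Satellite cell and regenerating fibre genes, among which nestin is often counted, leaned upward, with 7 of 12 higher, 1 lower and a median log2 fold change of 1.02. Over all genes 14.1% were higher and 14.9% lower, shares that also stand beside the cell type lists below. *Myh3*, embryonic myosin, rose from 9.29 ± 1.14 to 132.7 ± 107.5 CPM (adjusted p = 0.000584), *Ncam1* from 14.5 ± 2.71 to 50.2 ± 10.3 (adjusted p = 0.000154), *Myh8*, perinatal myosin, from 12.8 ± 0.589 to 26.8 ± 4.34 (adjusted p = 0.000243) and *Myf6* from 104.1 ± 16.6 to 198.5 ± 17 (adjusted p = 0.000552). The gene that fell, named after its value was seen, was *Pax7*, the satellite cell factor (log2FC -1.05 ± 0.16 SE, adjusted p = 0.00137). Beside the rise of *Vim*, 5 of 8 fibroblast markers and 6 of 7 macrophage markers rose and none fell. Their summed levels were 3270 to 8692 and 29.3 to 52.4 CPM in WT and 3886 to 11083 and 83.1 to 106 CPM in *Mtm1*-/y, and their part in the *Vim* value was not tested. Of the other cell type lists, 2 striated muscle markers rose and 6 fell of 10, 5 white adipocyte markers rose of 6 (4 without replicate 3), 1 mural marker rose and 2 fell of 6, and 2 endothelial markers fell of 6.

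In the diaphragm *Nes* was the gene whose genotypes did not overlap. It was at 49.6, 63.2, 69.6 and 45 CPM in WT and at 193, 79 and 276 CPM in *Mtm1*-/y, where replicate 2 stood just above the WT range. The log2 fold change was 1.69 (SE 0.39, adjusted p = 0.279), which did not pass edgeR's test of the tissue alone. It passed in DESeq2 (1.71, adjusted p = 0.00202), in the fit of all 30 libraries (1.68, adjusted p = 0.0141) and without *Mtm1*-/y replicate 2 (2.05, adjusted p = 0.0396). *Des* was at 1811, 2523, 2695 and 1947 CPM in WT and at 3862, 2417 and 4873 CPM in *Mtm1*-/y (0.74, SE 0.29, adjusted p = 0.43), with replicate 2 again the lowest. *Sync* had 22.9 to 44.1 CPM in WT and 34.1 to 68.7 CPM in *Mtm1*-/y, *Vim* 185 to 259 and 211 to 422 CPM, and *Synm* 193 to 375 and 182 to 295 CPM. With edgeR, 0 of the 7 genes were called, 2 had an unadjusted p under 0.05, and DESeq2 called 1 and limma voom 0. Over all 16796 genes tested, 1806 had an unadjusted p under 0.05 in edgeR. Of these 16796 edgeR called 0.0119%, DESeq2 called 2.37% of its own and the fit of all 30 libraries called 1.48%. The genotypes of 10% of all genes did not overlap, as was so for 1 of the 7.

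The diaphragm keratins were high in the libraries with high *Alb*, and the part of liver RNA in them was not tested. In WT, *Krt18* was at 40.1, 50.5, 3.36 and 51.4 CPM where *Alb* was at 26742, 16855, 284 and 19826 plain CPM. In *Mtm1*-/y it was at 11.6, 59.5 and 4.61 CPM where *Alb* was at 1816, 31876 and 583. The libraries low in *Alb* were low in *Krt18* in both genotypes, and the genotypes overlapped (log2FC -0.50 ± 1.07 SE, adjusted p = 0.946, and -2.17 without *Mtm1*-/y replicate 2, adjusted p = 0.291). *Krt8* was the same, at 2.41 to 35.4 CPM and 2.4 to 43.2 CPM (-0.23, SE 1.09, adjusted p = 0.974). The *Krt18* expected from *Alb* was 102%, 55.1%, 13.4% and 57.6% of that measured in the WT libraries and 22.8%, 85.4% and 18.5% in the *Mtm1*-/y libraries. The hepatocyte markers as a covariate brought the log2 fold change of *Krt18* to -0.09 (adjusted p = 0.85) and that of *Krt8* to 0.01 (adjusted p = 0.989). In the 3 diaphragms under 10000 plain CPM of *Alb*, 1 WT and 2 *Mtm1*-/y, the fit gave 1.27 for *Krt18* (SE 0.77, adjusted p = 0.585), with the lone WT library assumed to vary like the others. *Krt19* and the mesothelial marker *Upk3b* did not follow *Alb*, at 13.3 to 22.7 CPM and 125.5 ± 31.8 CPM in WT and at 16.4 to 26.7 CPM and 132.9 ± 5.3 CPM in *Mtm1*-/y.

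In the heart the genotypes overlapped for all 7 genes. Of these, 0 were called by edgeR, DESeq2 or limma voom, beside 0.00656% of 15238 genes called by edgeR, 0.453% by DESeq2 and 3.98% without overlap. *Vim* alone had an unadjusted p under 0.05 in edgeR, as did 1353 of the 15238 genes. *Vim* was at 242, 192, 239 and 416 CPM in WT and at 233, 153, 172 and 180 CPM in *Mtm1*-/y (log2FC -0.57 ± 0.24 SE, adjusted p = 0.546). WT replicate 4 was the top library for *Vim*, for *Synm* (41.8 CPM against 12 to 20.4 in the other WT hearts), for *Krt18* (6.14 CPM against 1.17 to 2.06) and for *Krt19* (18.3 CPM against 3.05 to 7.88), and it also led for mesothelial and fibroblast markers. Without it the log2 fold change of *Vim* was -0.28, the smallest in size over the libraries left out, and those of *Krt18* and *Krt8* turned to 0.22 and 0.18. *Des*, the main cardiac filament, was at 1056 to 1298 CPM in WT and 1127 to 1461 CPM in *Mtm1*-/y (0.15, SE 0.11, adjusted p = 0.598). *Nes* was at 31.5 to 82.5 and 56.3 to 118 CPM (0.58, SE 0.30, adjusted p = 0.547), and *Sync* at 16.6 to 19.7 and 12.6 to 19.5 CPM.

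In the liver, the tissue of highest keratin level, neither keratin was called. *Krt18* was at 213.2, 226.6 and 189 CPM in WT and at 200.3, 188.5, 191.2 and 189.4 CPM in *Mtm1*-/y (log2FC -0.17 ± 0.10 SE, adjusted p = 0.969). *Krt8* was at 100.5, 128.3 and 116.3 CPM and at 95, 86, 119.9 and 100.9 CPM (-0.24, SE 0.13, adjusted p = 0.969). The genotypes overlapped for all 7 genes. Of the 6 genes tested 0 were called by edgeR, DESeq2 or limma voom, beside 0% of 14305 genes called by edgeR, 0.163% by DESeq2 and 6.05% without overlap. In edgeR 0 of the 6 had an unadjusted p under 0.05, beside 606 of the 14305 genes. *Sync* had too few counts to be tested, with 0.0318 to 0.092 CPM in WT and 0 to 0.137 CPM in *Mtm1*-/y.

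**Figure D4:**
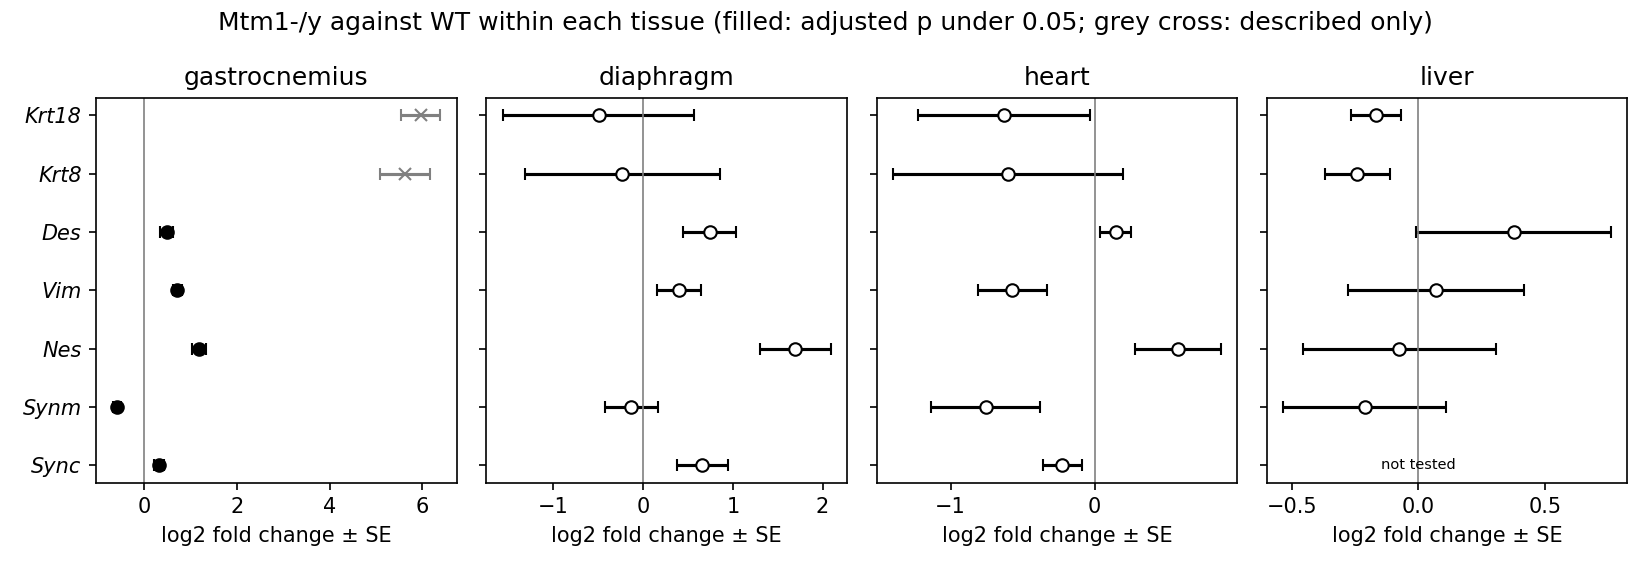
Log2 fold change of *Mtm1*-/y over WT for each gene in each tissue, with SE bars, from edgeR on each tissue alone. The panels have their own horizontal scales. Filled points passed an adjusted p of 0.05, and all of them are in the gastrocnemius. The grey crosses are *Krt18* and *Krt8* there, described without a test, at 5.97 and 5.62.

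A call in the gastrocnemius and none elsewhere does not by itself show that tissues differ, so the genotype effects were also compared between muscles. Between gastrocnemius and heart, 2 of the 5 genes other than the keratins differed, beside 19.8% of 16627 genes. They were *Vim* (difference of log2 fold changes 1.26, SE 0.27, adjusted p = 0.00563) and *Sync* (0.53, SE 0.18, adjusted p = 0.0487). The difference for *Sync* did not pass in DESeq2 (adjusted p = 0.064), and it passed in 4 of the 16 fits that each left out 1 library. Neither *Des* (0.32, SE 0.19, adjusted p = 0.247) nor *Nes* (0.58, SE 0.36, adjusted p = 0.261) nor *Synm* (0.14, SE 0.41, adjusted p = 0.851) passed. Between gastrocnemius and diaphragm, 0 of 5 passed in edgeR and DESeq2 called 0, beside 0.28% of 17509 genes in edgeR and 2.04% in DESeq2. In edgeR 0 of the 5 had an unadjusted p under 0.05, beside 2249 of the 17509 genes. The difference for *Nes* was -0.51 (SE 0.42, adjusted p = 0.648), for *Des* -0.24 (SE 0.32, adjusted p = 0.786) and for *Synm* -0.46 (SE 0.30, adjusted p = 0.556). Between diaphragm and heart, 0 of 7 passed in edgeR or DESeq2, beside 0.00573% of 17466 genes in edgeR. In edgeR 2 had an unadjusted p under 0.05, *Vim* and *Sync*, as did 1852 of the 17466 genes. For *Krt8* the difference was 6.2 (SE 1.15) between gastrocnemius and heart and 5.89 (SE 1.55) between gastrocnemius and diaphragm, the latter 7.64 without *Mtm1*-/y diaphragm replicate 2 and 4.47 without the 4 diaphragms high in *Alb*. These are descriptions, since its WT gastrocnemius level stands on 0 to 3 counts per library.

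Set side by side per length of exon, *Des* was the most abundant of the 7 in every muscle. Of the summed CPM per kilobase of the 7 genes, *Des* took 81.4% ± 1.9 in WT gastrocnemius, 80.7% ± 3.53 in diaphragm and 79.5% ± 5.42 in heart (SD, n = 4 each). In the *Mtm1*-/y gastrocnemius it took 85% ± 1.3, while the share of *Synm* was 5.89% ± 0.677 against 11.9% ± 1.52 in WT and that of *Nes* 2.59% ± 0.494 against 1.54% ± 0.175. *Krt18* went from 0.0169% ± 0.00357 to 0.771% ± 0.248 and remained a small part of the total. In the heart *Vim* took 15% ± 5.17 in WT and 9.82% ± 2.27 in *Mtm1*-/y. In WT liver *Krt18* took 69.1% ± 2.95 and *Krt8* 27.8% ± 2.56 (n = 3 each). These shares are descriptions without a test.

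**Figure D5:**
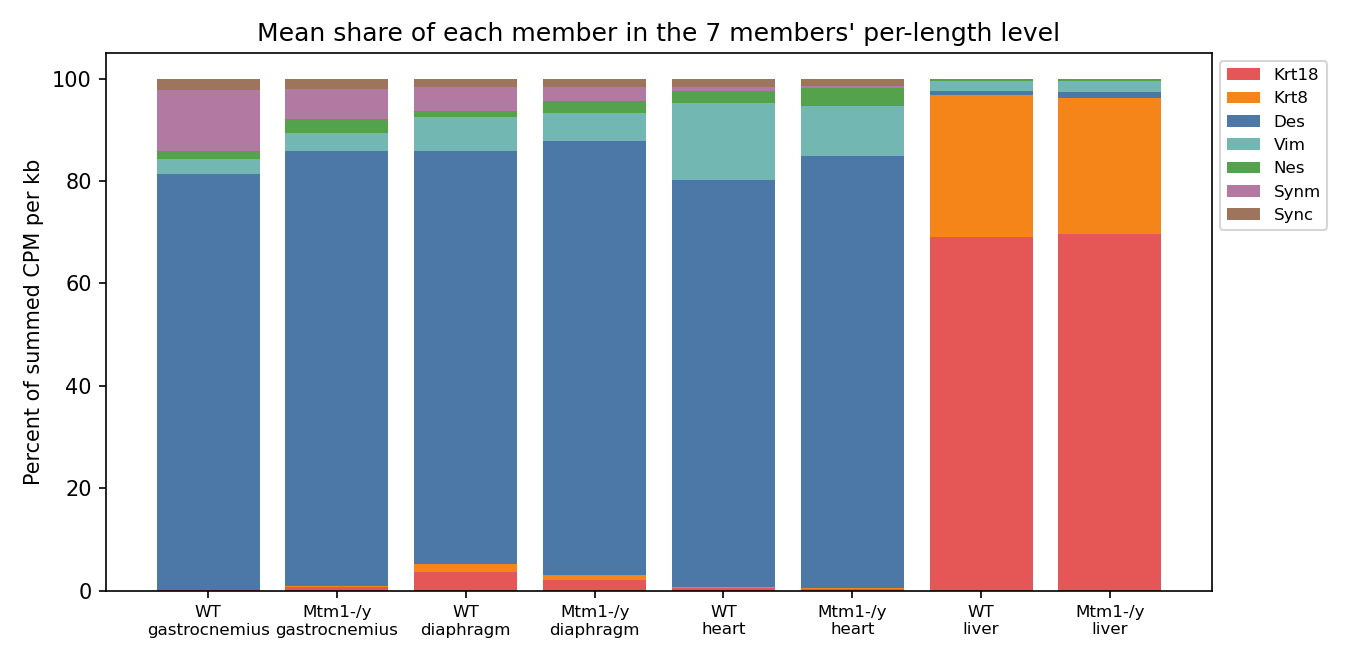
Mean share of each of the 7 genes in their summed CPM per kilobase of exon, in percent, for each genotype and tissue. *Des* fills most of each muscle bar, *Krt18* and *Krt8* fill the liver bars, and the *Synm* band is thinner in the *Mtm1*-/y than in the WT gastrocnemius, 5.89% against 11.9%.

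Over the 23 muscle and heart libraries, the genes with the most similar log2 CPM among 13952 expressed genes were described by Pearson's r. The points share tissues and genotypes, so that r carries no p. They include the 4 diaphragms with over 10000 plain CPM of *Alb*, which had the highest *Krt18* and *Krt8* of these libraries. The part of liver RNA in r was not tested. For *Krt18* they were *Rassf7* (r = 0.962), *Krt8* (0.955) and *Tmem176a* (0.926). For *Krt8* they were *Slc8b1* (0.979), *Ngef* (0.957) and *Krt18*. *Des* was closest to *Abra* (0.985), *Eprs* (0.983) and *Bex1* (0.982), *Synm* to *Kctd15* (0.995), *Clcn1* (0.994) and *Actn3* (0.993), *Sync* to *Gm26722* (0.99), *Pdlim3* (0.981) and *5031439G07Rik* (0.981), *Nes* to *Cog1* (0.927), *Rab3gap2* (0.904) and *Tspan3* (0.903), and *Vim* to *Cenpt* (0.913), *Ptgs2* (0.868) and *Loxl1* (0.862). Within the set, *Des* went with *Sync* (0.951) and *Synm* (0.89), and *Krt18* was only weakly related to *Des* (0.254) and *Nes* (0.0262).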

How the data were processed

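RNA had been extracted from gastrocnemius, diaphragm, heart and liver and read as stranded poly(A) libraries. The submitters' processing notes name bcl2fastq 2.17.1.14, cutadapt 1.10, STAR 2.5.3a and HTSeq 0.6.1p1 on mm10. The authors deposited raw counts of reads per gene, whole numbers without normalization. The strand setting of the counting is not given in the sources used here. Groups came from the sample labels, which number the replicates without tying them to animals, so that p-values measure the spread between libraries.

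Counts were tested in R 4.3.3 with edgeR 4.0.16 (quasi-likelihood, TMM, genes kept at a minimum count of 10, adjusted p under 0.05 by Benjamini-Hochberg over all genes tested). Each tissue was fitted alone, genotype effects were compared in 1 fit of 2 tissues, and tissue levels were compared over the 15 WT libraries. DESeq2 1.42.0, limma 3.58.1 (voom with sample weights), a fit of all 30 libraries, other scalings, no filter, a hepatocyte covariate, the replicate number and leaving out each library were alternatives. The steps were tested on simulated data. The *Krt18* expected from liver RNA was the *Alb* count times the ratio in the WT livers. Levels per kilobase used the union of annotated exons, and the likeness of genes used log2(CPM + 1) over genes averaging 1 CPM or more.

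The 7 genes and the gene lists were chosen with earlier results of these data known. Named from each list were up to 4 called genes of smallest p, or the 2 most abundant where none was called. Protein sequences were not used here. The result of a further cell type list is not reported here.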

Additional observations from a re-analysis of the deposited data

Results flagged for a closer look

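In each group of 4 libraries, the gap between an extreme value and its nearest neighbour was set against the range of the group. Of 42 groups of a gene examined in this way, 3 had such an extreme, and chance gives about 1 in 20. In the *Mtm1*-/y gastrocnemius, replicate 1 was the extreme for *Krt18*, at 29.8 CPM above 10.3 to 13.7 in the other 3, and for *Synm*, at 727 CPM above 654 to 656. In the *Mtm1*-/y heart, replicate 2 was the extreme for *Krt8*, at 1.91 CPM above 0.173 to 0.458. The same heart had the highest summed mesothelial markers of its group, 164 CPM, whose part in the *Krt8* value was not tested.

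The genotype effects of gastrocnemius and heart differed by edgeR's test for *Vim* and *Sync*, by 1.26 and 0.53 on the log2 scale. The value for *Krt8*, 6.2, is a description, since it passed the low-count filter in the gastrocnemius through the *Mtm1*-/y libraries. All 4 *Mtm1*-/y gastrocnemius libraries were above the WT libraries for each of the 3, and the genotypes overlapped in the heart.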

How the results depend on the processing

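Of the 882 values recomputed for single genes, 839 kept their direction or were uncalled in both settings, on the same side of the threshold. None that was called changed sign, and 30 uncalled ones did. The counts of calls here include *Krt8* wherever the gastrocnemius enters and, among 42 WT comparisons (40 called), those the report gives as descriptions. Calls of *Krt8* there are not a test of it, since it passed the low-count filter through the *Mtm1*-/y libraries. In the gastrocnemius 6 genes were called, *Krt8* among them, beside 29% of all genes. Apart from *Krt8*, *Nes* alone remained in the fit of all 30 libraries, beside 15.8% of genes. *Nes* alone also remained when a log2 fold change over 1 was required as well, beside 6.63%. The causes were not tested. *Des* was lost without the filter (adjusted p = 0.0575), with the hepatocyte covariate (0.144) and without WT replicates 1, 2 or 3 (0.0567 to 0.0721), and *Sync* was lost under DESeq2 size factors (0.0529), without the filter (0.0662), with the covariate (0.199) and passed in 3 of 8 fits that left out a library. Leaving out 1 library gave 4 to 6 calls in the gastrocnemius, 0 to 1 in the diaphragm, 0 in the heart and liver, 0 to 1 between gastrocnemius and diaphragm, 2 to 3 between gastrocnemius and heart, 0 between diaphragm and heart and 39 to 40 among WT levels. In the diaphragm 0 calls became 1 (*Nes*) in the fit of all 30 libraries, 1 in DESeq2 and 1 without *Mtm1*-/y replicate 2. Between gastrocnemius and diaphragm 0 became 1 in DESeq2 and without that library, and the 1 was *Krt8*, a description only. Between gastrocnemius and heart 3 became 5 with library totals alone, a scaling added after the data were seen.

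Within a tissue, same-numbered WT and *Mtm1*-/y libraries did not deviate together (correlations -0.64 to 0.46 over the tissues). The numbers were therefore not taken as pairs of the genotypes. These correlations do not address whether same-numbered libraries of different tissues came from the same mouse, which the labels do not give. With the replicate block 6 genes were called in the gastrocnemius, 0 in the diaphragm, heart and liver, 2 between gastrocnemius and heart and 40 among WT levels. Both keratins have 1 annotated transcript, so that its length gave the same keratin ratios as the union of exons. Depth limits the keratins in WT gastrocnemius, where a library held at most 10 counts of *Krt18* and 3 of *Krt8*.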
